A study of Amaranthus hybridus and Amaranthus hypochondriacus with 18 samples.

Results

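Leaf transcripts of *A. hybridus*, a wild amaranth, were compared between salt-stressed and control plants. The comparison rests on 3 salt and 3 control libraries, 6 of the 18 libraries of the series, and covers every transcript of the count table of this species. Both groups were wild-type plants of a line from INIFAP in Mexico, raised for 11 days in a growth chamber and for 19 days in a greenhouse before the 14 days of treatment. Salt-stressed plants received 100 ml of NaCl solution per day, at 0.15 M for 7 days, 0.3 M for 4 days and 0.5 M for 3 days. Control plants went on being watered at intervals of 3 days. A library held mature leaves 5 to 7 from the apex, pooled from 3 plants, so spread between single plants was not measured. The 3 water-deficit libraries of the species, from plants without irrigation over the same 14 days, entered the fit to estimate the spread and are compared with salt where stated.

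Salt in the soil lowers the water potential around the root and loads the shoot with sodium and chloride. Plants of the amaranth family are known to accumulate glycine betaine, made from choline in the chloroplast, and proline, both compatible solutes that balance the osmotic pressure of the vacuole. Abscisic acid (ABA) carries the signal of water shortage to stomata and to stress genes, and glutathione S-transferases and the ascorbate cycle handle electrophiles and peroxides that form under stress.

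The deposited table holds counts of reads for 30155 transcripts, of which 9686 passed the filter on low counts and were tested. Levels are given as CPM, the usual rate of counts relative to library size, after scaling by TMM, a factor that centres most transcripts between libraries. Libraries held 14601239 to 28689984 counts, but without the 20 most abundant transcripts only 339424 to 2552806, and the median tested transcript had 11 to 103 counts in a library. Control 3 stood apart from all other libraries. It held 2552806 counts outside the 20 most abundant transcripts, against at most 804449 elsewhere, and its TMM factor was 4.95 against 0.349 to 1.51 in the other 8. Summed over 31 transcripts annotated to the plastid genome, the level was 8184 CPM in control 3, 142605 CPM in control 1 and 67114 CPM in control 2, a 17.4-fold range within the controls. Where leaving it out moved a log2FC printed here by more than its standard error, or turned the sign of a list median, the value without it is given. By library totals as the only scaling, the median log2FC of all tested transcripts moved from -0.03 to -0.93, so that directions below are relative to the bulk of transcripts.

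Leaf markers were detected in all 6 libraries. The chlorophyll a-b binding protein (DN9789_c1_g1_i1), which collects light for photosynthesis, had 13.7, 14.5 and 31.8 CPM in controls 1 to 3 and 9.20, 12.2 and 8.55 CPM in salt 1 to 3, with a log2FC of -1.01, and of -0.49 without control 3. Summed over this and the transcripts of a photosystem I subunit, a rubisco small subunit and a beta carbonic anhydrase, controls had 24.4, 27.7 and 59.0 CPM and salt libraries 20.2, 26.8 and 18.3 CPM. Of these 4 markers, 3 had a negative log2FC, with a median of -0.76, and -0.28 without control 3. All 4 had been listed by the study as lower under water deficit against these same controls, which favours negative values. A smaller share of a cell type in the leaf and less RNA per cell cannot be told apart in such bulk samples.

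A transcript was called a DEG where its FDR was below 0.01 and its log2FC was above 1 or below -1 in the quasi-likelihood test of edgeR. Of the 9686 tested transcripts, 1 met both limits (0.0103%), up-regulated, and 0 were down-regulated. At an unadjusted p below 0.05 there were 322 higher (3.32%) and 416 lower (4.29%) under salt. The exact test of edgeR on the 6 libraries called 28 DEGs, 8 up-regulated and 20 down-regulated, and DESeq2 called 14, 6 up-regulated and 8 down-regulated. Control and salt libraries did not overlap for 624 higher (6.44%) and 706 lower (7.29%) transcripts. The median standard error of a log2FC was 0.38, and for 3370 transcripts (34.8%) the 95% interval lay within a log2FC of -1 to 1. For the others a change of more than 1 on the log2 scale could not be left out. Descriptions are in hand for 466 tested transcripts. The study had listed all of these as changed under salt or water deficit on these same libraries, so that the named transcripts below are no independent sample. Listing as higher than these controls favours a positive log2FC under salt as well, and listing as lower a negative one.

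**Figure D1:**
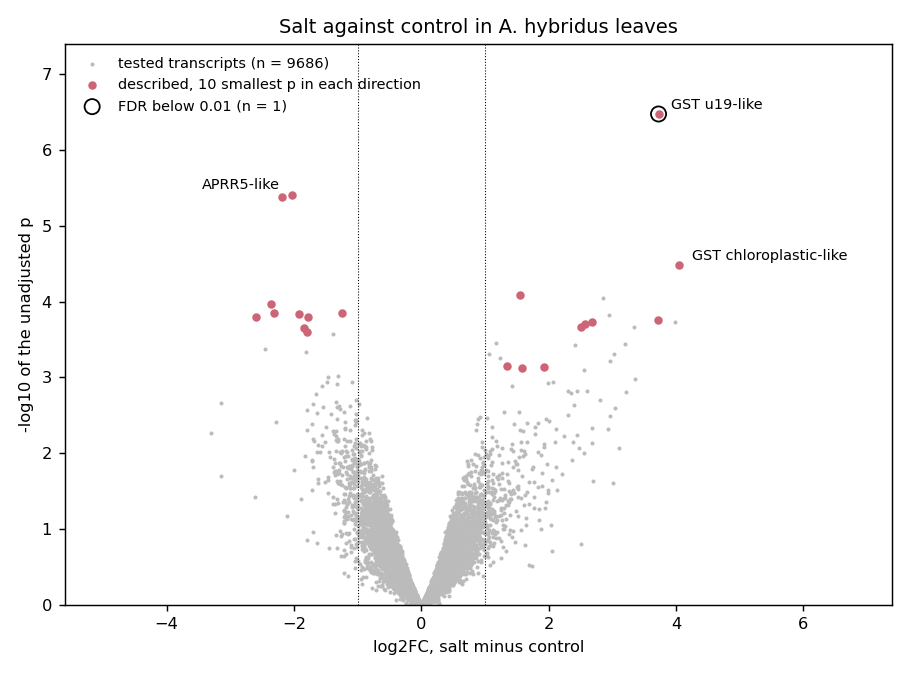
Each point is 1 of 9686 tested transcripts, with the log2FC of salt minus control on the x axis and -log10 of the unadjusted p on the y axis. The 20 described transcripts with the smallest p values are red, dotted lines mark a log2FC of -1 and 1, and the circled point, the glutathione S-transferase u19-like transcript at 3.73, is the only one with an FDR below 0.01.

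Transcripts of detoxification stood first among those higher under salt. The glutathione S-transferase u19-like transcript (DN26590_c0_g1_i1), whose product joins glutathione to electrophiles, had 3, 5 and 13 counts in controls 1 to 3 and 25, 28 and 98 counts in salt 1 to 3. On the CPM scale these were 0.300, 0.259 and 0.147 in controls and 2.5, 1.76 and 3.60 under salt, and every salt library was above every control. It rose by a log2FC of 3.73 (SE 0.40, 95% interval 2.87 to 4.58, FDR 0.00324 by the quasi-likelihood test of edgeR). The call was lost without control 2, control 3, salt 1 or salt 3, with FDR values up to 0.0452, and the log2FC without control 3 was 3.26. It was also lost with the replicate number as a block (FDR 0.0324), in the quasi-likelihood test on the 6 libraries alone (FDR 0.0182) and by library totals (FDR 0.778).

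A chloroplastic-like glutathione S-transferase (DN27891_c0_g1_i1) had 0.500, 0 and 0.0678 CPM in controls and 2.1, 1.32 and 2.09 CPM under salt, again without overlap. Its 0 counts in control 2 allow a level of up to 0.156 CPM there, and such limits cover counting error only. Its log2FC of 4.05 (SE 0.66) had an FDR of 0.0799 and did not pass, but it was a DEG by the exact test (FDR 1.2e-05), by DESeq2 (FDR 1.33e-05) and without control 1 (FDR 0.00296). Without control 3 its log2FC was 3.31 (FDR 0.362). L-ascorbate peroxidase 1 (DN4211_c0_g2_i1), which reduces hydrogen peroxide with ascorbate, had 0.701, 0.104 and 0.181 CPM in controls and 1.00, 1.63 and 1.47 CPM under salt (log2FC 2.5, SE 0.50, FDR 0.109). Both groups were apart here too, though control 1 lay close to salt 1.

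The other 4 members of the glutathione and ascorbate list overlapped between groups. Monodehydroascorbate reductase (DN8920_c0_g1_i1), which returns oxidised ascorbate to its reduced form, had 5.50, 5.13 and 8.24 CPM in controls and 5.2, 6.73 and 4.51 CPM under salt, with a log2FC of -0.22 (SE 0.27). A dehydroascorbate reductase (DN6099_c0_g2_i1), the other enzyme that restores ascorbate, had a log2FC of -0.28 (SE 0.66), the glutathione S-transferase DHAR2-like transcript (DN19223_c0_g1_i1) -0.37 (SE 0.85) and a further glutathione S-transferase-like transcript (DN4127_c0_g2_i1) -0.14 (SE 0.55). Without control 3, all 7 members had a positive log2FC, against 3 of 7 with it.

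The transcript with the next smallest p was lower under salt and belongs to the circadian clock. The APRR5-like response regulator transcript (DN9426_c0_g2_i1), named after a pseudo-response regulator that represses morning genes in Arabidopsis, had 17.8, 16.9 and 17.3 CPM in controls and 4.00, 5.03 and 3.71 CPM under salt. Controls were tight and the salt libraries lay far below them. Its log2FC of -2.03 (SE 0.27) had an FDR of 0.0135, just above the limit, and -2.02 with an FDR of 0.0452 without control 3. The water-deficit libraries had 4.70, 4.53 and 2.98 CPM, and water deficit against salt gave a log2FC of -0.05 (SE 0.27, FDR 0.959).

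Of the other circadian transcripts, a PCL1-like transcription factor (DN24_c0_g2_i1), whose Arabidopsis counterpart acts in the evening complex of the clock, had 11, 10 and 31 counts in controls and 1, 2 and 0 counts under salt. Its log2FC was -3.14 (SE 0.83, FDR 0.378), from 0.350 to 1.10 CPM in controls to at most 0.126 CPM under salt, without overlap. Under water deficit it was at 1.14, 1.14 and 0.596 CPM, higher than under salt by a log2FC of 3.96 (FDR 0.00962). PRR37 (DN19862_c0_g1_i1), another pseudo-response regulator, had a log2FC of 0.65 (SE 0.62), and bolting time control 1 (DN24256_c0_g1_i1) 0.36 (SE 0.45). Of the 7 tested circadian transcripts, 0 were DEGs. Groups did not overlap for 2, APRR5-like and PCL1-like, both lower under salt, against 7.29% of all tested transcripts. The study had listed both as lower under salt on these same libraries. That choice largely fixed this outcome, so it is no independent result. The median log2FC of the 7 was -0.12. The sign of this median turned without control 3, at 0.11 with 4 of 7 positive, and it was -0.48 without salt 3. A constans-like 1 transcript (DN7210_c0_g1_i1), of a family that ties flowering to day length and chosen here after its values were seen, had 8.31, 7.05 and 11.2 CPM in controls and 8.00, 10.2 and 6.42 CPM under salt, but 0.568, 0.264 and 0.894 CPM under water deficit (log2FC of water deficit minus salt -3.89, FDR 0.00014).

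Further described transcripts with the smallest p had FDR values of 0.0135 to 0.215. Groups did not overlap for any of them, against 6.44% higher and 7.29% lower over all tested transcripts. Picking these transcripts by small p in this same test largely fixed that outcome. Among those higher under salt, a TRAF-like family protein (DN27061_c0_g1_i1) had 0.801, 0.518 and 0.113 CPM in controls and 2.20, 2.26 and 2.20 CPM under salt (log2FC 2.68, SE 0.52). Acetyl-CoA carboxylase 1-like (DN9346_c0_g1_i1), which makes malonyl-CoA for fatty acid synthesis, had 7.61, 8.04 and 4.41 CPM in controls and 19.3, 16.5 and 14.8 CPM under salt (log2FC 1.35, SE 0.31). A nuclear fusion defective 4-like transcript (DN3390_c0_g1_i1) had 1.5, 1.35 and 1.79 CPM in controls and 4.60, 5.22 and 4.29 CPM under salt (log2FC 1.58, SE 0.36). This last one was at 0.361, 0.748 and 1.64 CPM under water deficit, lower than under salt by a direct test (log2FC -2.42, FDR 0.00281).

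Transcripts of 3 cytosolic ribosomal proteins were in the same group. A 40S ribosomal protein S16-3 transcript (DN6130_c0_g2_i1) had 1, 2 and 1 counts in controls and 9, 9 and 10 counts under salt (log2FC 3.71, SE 0.72). Those of 60S ribosomal proteins L19-1 (DN16794_c0_g1_i1) and L8-3 (DN18716_c0_g1_i1) had log2FCs of 2.57 (SE 0.50) and 1.93 (SE 0.44), from means of 0.283 and 0.216 CPM in controls. An uncharacterized transcript (DN4334_c0_g2_i1) had a log2FC of 1.54 (SE 0.28). Control 3 was the lowest control for 5 of these 10 described transcripts, and without it the log2FCs of S16-3 (DN6130_c0_g2_i1) and TRAF-like (DN27061_c0_g1_i1) were 2.36 and 1.82, and that of L19-1 (DN16794_c0_g1_i1) was 1.73.

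Among those lower under salt, an uncharacterized transcript (DN9552_c0_g1_i1) had 4.80, 5.08 and 5.68 CPM in controls and 1.10, 0.754 and 1.5 CPM under salt, with a log2FC of -2.18 (SE 0.29, FDR 0.0135). Under water deficit it was at 15.5, 14.3 and 14.5 CPM, above both other groups, and the test of water deficit against salt gave 3.69 (FDR 4.18e-05). A glycine-rich RNA-binding protein (DN8991_c0_g1_i1) had 2.20, 3.78 and 9.58 CPM in controls, 0.600, 1.13 and 0.881 CPM under salt and 9.91, 5.50 and 6.48 CPM under water deficit. Its log2FC under salt was -2.59 (SE 0.50) and -1.77 without control 3. A chloroplastic-like 29 kDa ribonucleoprotein (DN2534_c0_g1_i1), of a family that binds plastid RNA, had 3.20, 3.94 and 3.45 CPM in controls and 0.800, 0.880 and 1.28 CPM under salt (log2FC -1.79, SE 0.36). It too was higher under water deficit than under salt, by a log2FC of 3.11 (FDR 0.000302), as was a Ty1-copia retrotransposon transcript (DN8942_c0_g1_i1), with a log2FC of -2.36 (SE 0.43) under salt, -1.69 without control 3, and 2.88 (FDR 0.0021) for water deficit against salt. All 4 were thus higher without water than under salt.

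Of 4 further transcripts low under salt, 3 were lower still under water deficit by the direct test. Xanthoxin dehydrogenase-like (DN9132_c0_g1_i1), of the type of enzyme that turns xanthoxin into abscisic aldehyde on the way to ABA, had 4.40, 4.04 and 5.21 CPM in controls, 1.70, 2.01 and 2.05 CPM under salt and 0.258, 0.220 and 0.298 CPM under water deficit. The log2FC was -1.24 (SE 0.23) under salt, and -2.91 (FDR 0.000189) for water deficit against salt. The endochitinase a-like transcript (DN336_c0_g2_i1), whose product cuts the chitin of fungal walls, had 12.0, 9.33 and 12.0 CPM in controls and 2.60, 4.15 and 2.97 CPM under salt (log2FC -1.77, SE 0.34), and was lower under water deficit than under salt (-2.32, FDR 0.00375). Plant cadmium resistance 2-like (DN28039_c0_g1_i1), a membrane protein that exports zinc in Arabidopsis, had a log2FC of -1.84 (SE 0.37) under salt, -1.47 without control 3, and of -3.04 (FDR 0.00575) for water deficit against salt. A chaperone domain protein (DN8898_c0_g3_i1) had 5.2, 5.34 and 7.26 CPM in controls and 0.800, 1.57 and 2.13 CPM under salt (log2FC -1.93, SE 0.36), and its water deficit against salt contrast did not pass (log2FC -1.50, FDR 0.0705).

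A transcript described only as 21 kDa (DN8305_c0_g1_i1) had a log2FC of -2.31 (SE 0.44). Control 3 was the highest control for 8 of these 10 described transcripts with a lower level under salt. Thiamine thiazole synthase (DN9154_c0_g1_i1), which builds the thiazole part of vitamin B1, was chosen after its values were seen because it was the most abundant described transcript with an unadjusted p below 0.05. It had 51.3, 55.2 and 68.8 CPM in controls and 14.5, 21.7 and 13.6 CPM under salt (log2FC -1.81, SE 0.39, FDR 0.166). DESeq2 and the exact test called it a DEG, and the quasi-likelihood test did not. Among transcripts with no description, the smallest p values were those of DN10725_c0_g1_i1 (log2FC 2.86, SE 0.52) and DN5478_c0_g1_i1 (2.94, SE 0.56), higher under salt, and of DN11214_c0_g1_i1 (-1.39, SE 0.28) and DN7672_c0_g1_i1 (-1.31, SE 0.31), lower.

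**Figure D2:**
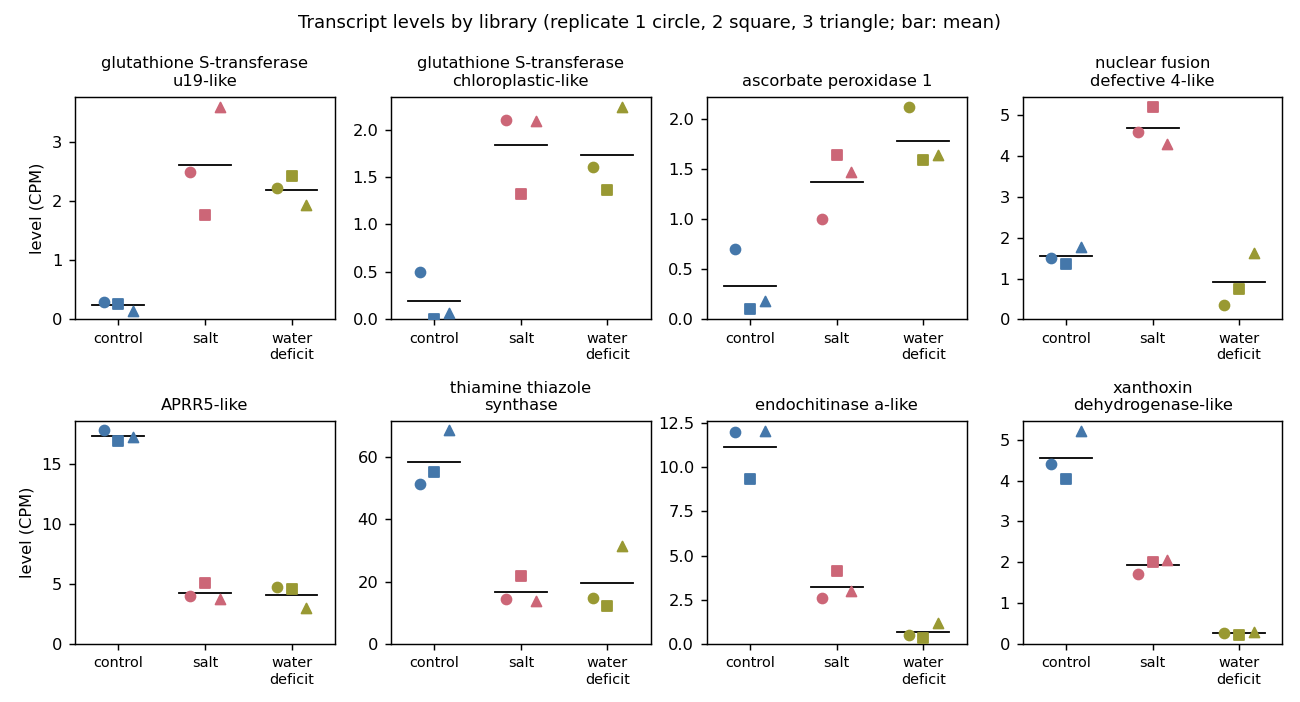
Levels in CPM of 8 transcripts (y axes start at 0) in the control, salt and water-deficit libraries, with 1 point for each library and a bar for the mean of 3. In all 8 panels the salt libraries lie apart from the controls. These transcripts were picked for small p values in the same test or after their values were seen. For APRR5-like the salt libraries lie at the level of water deficit, while for the nuclear fusion defective 4-like transcript they lie above it.

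The pathway of glycine betaine was higher in all salt libraries as a sum, mostly through 1 of its transcripts, with no member past the test. Its 5 transcripts together had 37.4, 44.1 and 72.3 CPM in controls and 148, 116 and 112 CPM under salt, a ratio of means of 2.44, and of 3.07 without control 3. Most of this came from phosphoethanolamine N-methyltransferase (DN9721_c0_g2_i1), which methylates phosphoethanolamine on the way to choline, with 23.6, 30.3 and 47.0 CPM in controls and 120, 93.0 and 87.6 CPM under salt. Groups did not overlap, yet its log2FC of 1.57 had a standard error of 0.90 (FDR 0.722). The water-deficit libraries, which share in that error, were at 106, 124 and 1.42 CPM.

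Upstream of it, serine decarboxylase-like (DN8761_c0_g1_i1), which makes ethanolamine from serine, had 5.2, 5.60 and 7.03 CPM in controls and 15.7, 8.68 and 9.61 CPM under salt (log2FC 0.91, SE 0.48). Choline monooxygenase (DN9379_c0_g2_i1), which takes the first step from choline to glycine betaine, had 4.60, 5.13 and 14.4 CPM in controls and 7.20, 8.61 and 10.6 CPM under salt (log2FC 0.11, SE 0.73), where control 3 lay above all salt libraries and without it the log2FC was 0.87. Of the betaine aldehyde dehydrogenase transcripts, which take the last step, DN27070_c0_g1_i1 had 1.90, 1.45 and 1.83 CPM in controls and 3.40, 2.51 and 2.20 CPM under salt (log2FC 0.62, SE 0.38), and DN6666_c1_g1_i1 had a log2FC of 0.16 (SE 0.47) with overlap. All 5 log2FCs were positive, with a median of 0.62 against -0.03 over all tested transcripts. Groups did not overlap for 3 of 5 members, higher under salt, against 6.44% of all tested transcripts. All 5 had been listed by the study as higher under water deficit against these same controls, which favours positive values. Phosphoethanolamine N-methyltransferase, which carried most of the sum, had been listed as higher under salt as well. Setting them against all transcripts is therefore no even contrast. By library totals the median was -0.40 and 1 of 5 was positive, while that of all transcripts was -0.93.

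Transcripts of proline synthesis and transport had a like pattern. Delta-1-pyrroline-5-carboxylate synthase-like (DN9716_c0_g2_i1), the first enzyme of proline synthesis from glutamate, had 3.00, 3.53 and 2.84 CPM in controls and 7.00, 4.53 and 5.98 CPM under salt (log2FC 0.90, SE 0.57, FDR 0.751). A proline transporter 2-like transcript (DN9338_c0_g1_i1) had 11.0, 15.3 and 18.6 CPM in controls and 24, 24.1 and 38.7 CPM under salt (log2FC 0.95, SE 0.31, FDR 0.512). It was lower under water deficit, at 5.78, 6.77 and 7.08 CPM, than under salt (log2FC -2.15, FDR 0.00186). The second one (DN8053_c0_g2_i1) had 2.90, 2.96 and 4.21 CPM in controls and 5.80, 4.71 and 6.93 CPM under salt (log2FC 0.77, SE 0.47). All 3 were higher without overlap between control and salt, against 6.44% of all tested transcripts, with a median log2FC of 0.90. By library totals the median was -0.12 with 1 of 3 positive. The study had listed all 3 as higher under salt or water deficit against these same controls.

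Transcripts of raffinose and trehalose synthesis overlapped between control and salt. The sum over 6 transcripts was 2.70, 4.15 and 3.76 CPM in controls and 4.40, 3.58 and 5.25 CPM under salt, with overlap. Galactinol-sucrose galactosyltransferase 2 (DN9347_c1_g1_i1), a raffinose synthase, had 0.901, 1.61 and 1.39 CPM in controls and 2.60, 0.629 and 1.65 CPM under salt (log2FC 0.25, SE 0.91), and 38.8, 52.9 and 1.12 CPM under water deficit. A further galactosyltransferase (DN8394_c0_g2_i1) had a log2FC of 0.27 (SE 0.56) and the UDP-glucose 4-epimerase transcript DN9128_c0_g2_i1 one of 0.01 (SE 1.12). Galactinol synthase (DN5724_c0_g1_i1), which makes the galactosyl donor, the epimerase transcript DN9128_c0_g1_i1 and a trehalose-phosphate synthase (DN5656_c0_g2_i1) were below the filter, with means of 0.124, 0.145 and 0.275 CPM under salt.

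Protective proteins did not move in 1 direction either. LEA proteins and dehydrins are hydrophilic proteins that accumulate in drying tissue and seeds. Of 13 such transcripts 10 were tested, 7 with a positive and 3 with a negative log2FC (median 0.21), and 0 were DEGs. The late embryogenesis abundant transcript DN5179_c0_g1_i1 had 0.200, 0.259 and 0.0452 CPM in controls and 1.00, 0.566 and 0.734 CPM under salt (log2FC 2.70, SE 1.05, FDR 0.608, and 1.62 without control 3). An ASR2 protein (DN9631_c1_g2_i1), the most abundant member, had 19.6, 15.9 and 37.9 CPM in controls and 15.2, 14.6 and 10.8 CPM under salt (log2FC -0.86, SE 0.63). The salt-induced hydrophilic protein DN8422_c1_g2_i1 had means of 8.66 CPM in controls and 8.91 CPM under salt. A second ASR2 transcript (DN4889_c0_g1_i1) had a log2FC of -1.05 (SE 0.60), and of -0.31 without control 3, and a dehydrin-like transcript (DN7095_c0_g1_i1) one of -0.90 (SE 0.59). Without control 3 all 13 members passed the filter, 10 had a positive log2FC and the median was 0.77, whereas without control 2 5 of 13 were positive and the median was -0.10.

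**Figure D3:**
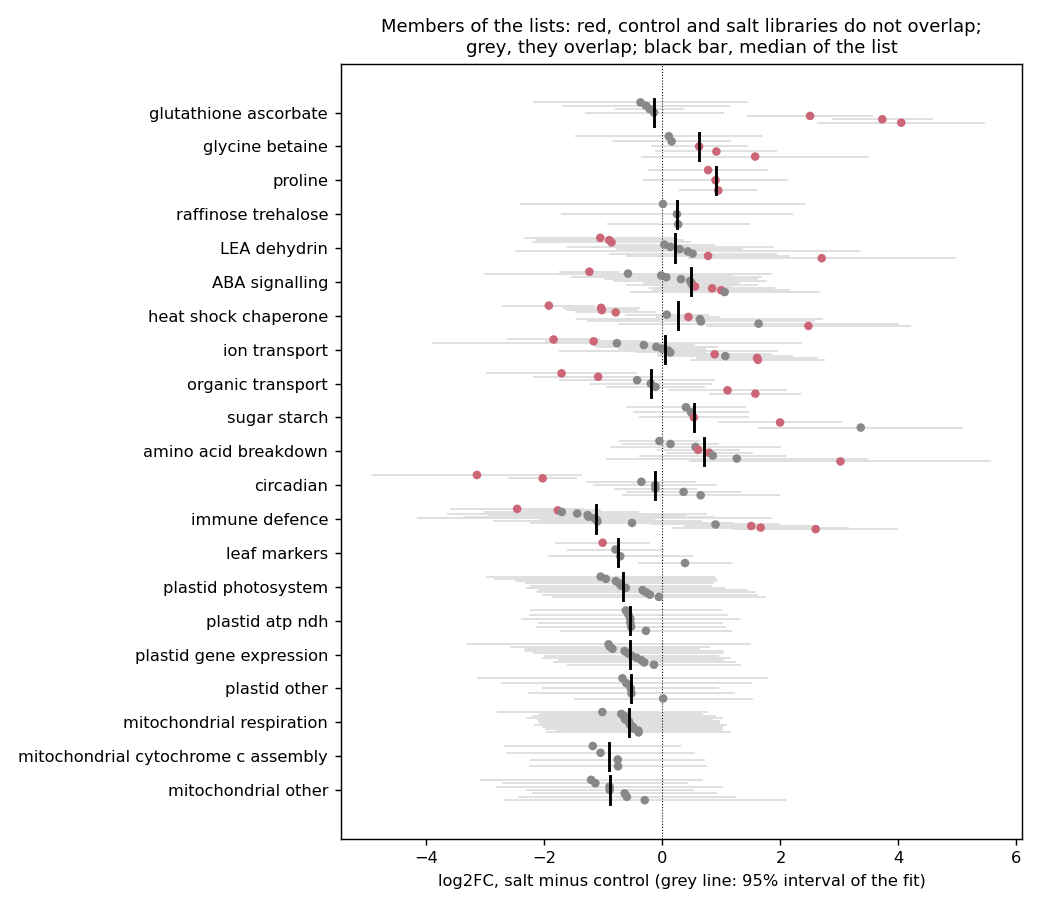
The log2FC of salt minus control (x axis) of each tested member of 21 lists (y axis), with its 95% interval as a grey line and the median of the list as a black bar. Members of the glycine betaine, proline, sugar and starch lists all lie to the right of 0, those of the plastid and mitochondrial lists lie to its left but for 1, and most intervals cross 0.

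Genes of the ABA pathway had log2FCs of both signs. Of 12 tested, 9 were positive and 3 negative (median 0.48), by library totals 2 were positive (median -0.55), and 0 were DEGs. Groups did not overlap for 3 positive and 1 negative member, against 6.44% higher and 7.29% lower over all tested transcripts. The study had listed the members under water deficit against these same controls, and 0 under salt. That listing favours the sign and the lack of overlap, so the contrast is not even. A protein phosphatase 2C 37-like transcript (DN9407_c1_g1_i1), of a class of phosphatases that ABA induces and that holds its signalling back, had 0.901, 0.415 and 0.452 CPM in controls and 1.20, 1.07 and 0.954 CPM under salt (log2FC 1.00, SE 0.54). Protein phosphatase 2C 24 (DN5660_c0_g1_i1) had 0.801, 0.778 and 0.972 CPM in controls and 2.1, 1.26 and 1.47 CPM under salt (log2FC 0.84, SE 0.50), and the Ninja-family protein AFP1 (DN27184_c0_g1_i1), which restrains ABA signalling in Arabidopsis, had a log2FC of 1.06 (SE 0.75). Xanthoxin dehydrogenase-like, described above, was the 1 member with an unadjusted p below 0.05, against 4.29% lower over all tested transcripts. Transcripts DN9407_c0_g1_i1, DN9407_c1_g1_i1 and DN9407_c2_g1_i1 share an assembly cluster and may be parts of 1 gene, so that members are not independent.

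Chaperones help proteins to fold, and small heat shock proteins keep damaged ones from clumping. The list sum was lower under salt, with 61.4, 62.2 and 57.1 CPM in controls and 41.5, 34 and 33.7 CPM under salt. The median log2FC of its tested members was 0.26, opposite in sign, and -0.02 without salt 3. The study had listed 3 members under salt on these same libraries. Heat shock cognate 70 kDa protein 2 (DN9776_c1_g1_i1), a constitutive folding helper of the cytosol, had 14.8, 12.2 and 8.72 CPM in controls and 6.30, 6.04 and 4.99 CPM under salt (log2FC -1.04, SE 0.30, FDR 0.454). The stromal 70 kDa heat shock-related transcript DN23635_c0_g1_i1, of the chloroplast, had 0.100, 0.156 and 0.0791 CPM in controls and 0.300, 0.754 and 0.587 CPM under salt (log2FC 2.47, SE 0.80, FDR 0.513), and DN2289_c0_g1_i1, of the same type, had a log2FC of 1.63 (SE 1.10) with overlap. Of 10 tested members 0 were DEGs, 6 were positive and 4 negative. An unadjusted p below 0.05 was found for 1 higher and 4 lower members. Over all tested transcripts the shares were 3.32% higher and 4.29% lower. With 3 members listed under salt on these libraries, this is no even contrast.

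Ion transporters were close to the bulk of transcripts, with a median log2FC of 0.05 over 12 tested, 6 positive and 6 negative, and 0 DEGs. The cation/calcium exchanger 4-like transcripts, named for carriers that swap cations for calcium, had the highest values. DN2482_c0_g1_i1 had 0.400, 0.259 and 0.384 CPM in controls and 1.30, 0.880 and 1.10 CPM under salt (log2FC 1.6, SE 0.48, FDR 0.464), and DN2482_c1_g1_i1, of the same assembly cluster, had a log2FC of 1.62 (SE 0.53), and of 2.16 without control 3. Ammonium transporter 1 member 2-like (DN10618_c0_g1_i1) had 10.7, 10.1 and 6.78 CPM in controls and 5.70, 4.97 and 1.80 CPM under salt (log2FC -1.17, SE 0.39, FDR 0.513). The list holds no transcript described as an SOS1 or NHX sodium/proton exchanger. The transcript described as metal transporter NRAMP5 (DN26490_c0_g1_i1) was outside the naming rule and chosen after its values were seen. It had 210618, 93474 and 9521 CPM in controls and 95196, 44827 and 43672 CPM under salt (log2FC -0.77, SE 1.45). That was nearly all of the list sum, at 210644, 93502 and 9549 CPM in controls. The plastid transcripts fell likewise over controls 1 to 3, from 142605 to 67114 and 8184 CPM. Whether its description holds was not tested.

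Carriers of organic compounds pointed both ways. Ureide permease 1-like (DN9081_c0_g1_i1) had 4.10, 6.48 and 7.18 CPM in controls and 12.7, 8.24 and 17.6 CPM under salt (log2FC 1.10, SE 0.47, FDR 0.648). A sucrose transporter (DN9692_c1_g1_i1), of the type that loads sucrose into the phloem, had 69.5, 51.1 and 40.2 CPM in controls and 24.3, 26.5 and 24.7 CPM under salt (log2FC -1.09, SE 0.51, FDR 0.656), and GABA transporter 1-like (DN6803_c0_g1_i1) had 4.30, 2.90 and 3.32 CPM in controls and 0.700, 1.19 and 1.17 CPM under salt (log2FC -1.71, SE 0.59). These 3 did not overlap between groups, nor did the nuclear fusion defective 4-like transcript described above. That made 2 higher and 2 lower of 7 members, against 6.44% higher and 7.29% lower over all tested transcripts. The study had listed these 4 as changed under salt on these same libraries, which favours this outcome, so the contrast is not even. SWEET12-like (DN9156_c0_g1_i1), a sucrose exporter, had a log2FC of -0.43 (SE 0.61), and sugar transport protein 13 transcripts DN8623_c0_g1_i1 and DN8623_c0_g2_i1 had -0.12 (SE 0.39) and -0.20 (SE 0.48), the latter 0.34 without control 3.

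Sugar and amino acid metabolism had positive medians. All 5 tested transcripts of sugar and starch metabolism were positive (median 0.53), led by glyceraldehyde-3-phosphate dehydrogenase C subunit (DN7150_c0_g2_i1), a glycolytic enzyme, with 3, 1 and 2 counts in controls and 2, 16 and 18 under salt (log2FC 3.36, SE 0.80, and 2.19 without control 3). A fructose-bisphosphate aldolase transcript of the cytosol (DN17181_c0_g1_i1) had 1.10, 0.415 and 0.215 CPM in controls and 1.30, 1.95 and 1.91 CPM under salt (log2FC 1.99, SE 0.48, and 1.36 without control 3), sucrose synthase (DN8877_c0_g1_i1) had a log2FC of 0.53 (SE 0.43) and a beta-amylase (DN5959_c0_g2_i1) one of 0.49 (SE 0.46). Of 8 transcripts of amino acid breakdown 7 were positive (median 0.70). Fumarylacetoacetase (DN8400_c0_g3_i1), the last step of tyrosine breakdown, had 5.10, 3.99 and 7.34 CPM in controls and 8.70, 9.05 and 10.9 CPM under salt (log2FC 0.79, SE 0.34), and alpha-aminoadipic semialdehyde synthase-like (DN9566_c0_g1_i1), of lysine breakdown, had 0, 2 and 3 counts in controls and 4, 5 and 12 counts under salt (log2FC 3.02, SE 1.19). Methionine gamma-lyase-like (DN8161_c0_g1_i1) had 1.26 (SE 1.03) and a branched-chain aminotransferase (DN13228_c0_g1_i1) 0.85 (SE 0.58). None of these 13 was a DEG. By library totals the medians were -0.31 for each list, with 2 of 5 and 2 of 8 positive. The named transcripts of both lists had been listed by the study as higher under water deficit or salt against these same controls, which favours positive values.

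Immune and defence transcripts had a negative median log2FC of -1.13 over 14, of which 10 were negative and 4 positive. The study had listed 12 under salt on these libraries, and 0 were DEGs. Groups did not overlap for 3 higher and 2 lower members, against 6.44% higher and 7.29% lower over all tested transcripts. Summed levels overlapped, at 50.8, 46.2 and 45.7 CPM in controls and 37.1, 37.8 and 49.9 CPM under salt. Besides the endochitinase, major allergen Pru ar 1-like (DN6585_c0_g2_i1), of the PR-10 family of defence proteins, had 1.6, 1.14 and 1.31 CPM in controls and 0.100, 0.251 and 0.294 CPM under salt (log2FC -2.46, SE 0.53, FDR 0.157). A salicylate carboxymethyltransferase-like transcript (DN13572_c0_g1_i1), of enzymes that make methyl salicylate, had 0.901, 1.30 and 2.60 CPM in controls and 1.40, 0.126 and 0.330 CPM under salt (log2FC -1.71, SE 0.61), with salt 1 among the controls. An RCR3-like cysteine protease (DN7868_c0_g1_i1), named after a secreted protease of tomato that acts in resistance, went the other way, with 1.40, 0.156 and 0.226 CPM in controls and 2.40, 2.39 and 2.75 CPM under salt (log2FC 2.60, SE 0.65, FDR 0.308). Without salt 3 the list median was -0.47, and -0.61 without control 2.

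**Figure D4:**
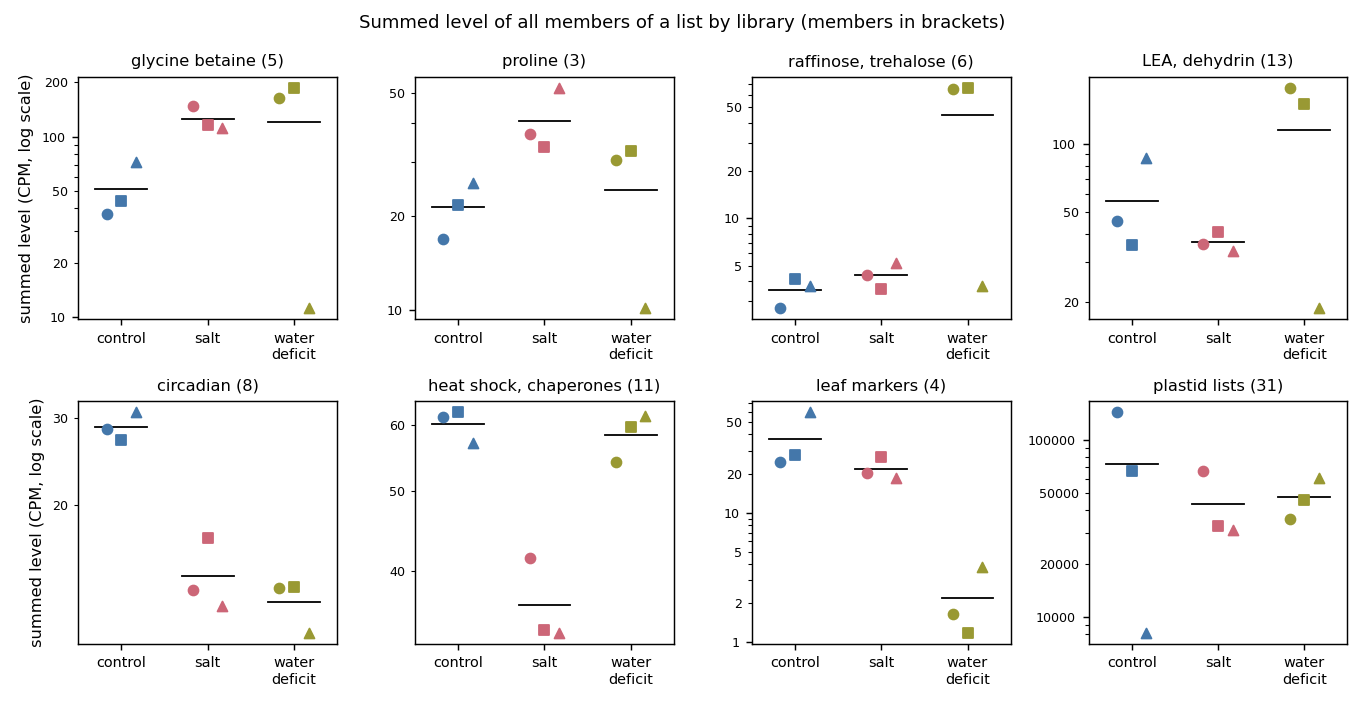
Summed level of all members of 8 lists in each library, in CPM on log axes, with 1 point for each library and a bar for the mean of 3. Salt libraries lie above controls for glycine betaine and proline, overlap with them for raffinose and trehalose, and below them for the circadian and chaperone lists, while the plastid lists run from 8184 to 142605 CPM within the controls and water deficit 3 lies apart from the other water-deficit libraries in the upper panels.

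Transcripts of the organelle genomes ranged widely among the controls. The 31 plastid transcripts include photosystem, ATP synthase, NDH, ribosomal and RNA polymerase genes, and the 23 mitochondrial ones include 12 of respiration, 4 of cytochrome c assembly and 7 others, mostly hypothetical proteins. All 54 were listed by the study as lower under salt on these libraries. In the fit 53 of 54 had a negative log2FC, with a median of -0.61, but 0 had a p below 0.05 and all 54 overlapped between groups. The mitochondrial transcripts summed to 15509, 7173 and 766 CPM in controls and 7292, 3467 and 2945 CPM under salt, so that control 1 lay above and control 3 below all salt libraries. Photosystem I P700 apoprotein A1 (DN9911_c0_g6_i1) of the plastid, the core protein of photosystem I, had a mean of 1386 CPM in controls and 713 CPM under salt (log2FC -0.96, SE 0.88). Without control 1 only 10 of 54 were negative and the median was 0.26, and without control 3 all 54 were negative and the median was -1.13. By library totals 37 were negative, with a median of -0.07 that lay above the -0.93 of all tested transcripts.

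Salt and water deficit were also tested against each other, without the controls in the contrast. The quasi-likelihood test called 25 transcripts higher (0.258%) and 180 lower (1.86%) under water deficit than under salt, 205 in all, which single omissions moved to between 63 (without water deficit 2) and 539 (without water deficit 3). It called 18 of the 188 tested list members, 9 higher and 9 lower. Leaf markers were lower under water deficit, with sums of 1.65, 1.19 and 3.80 CPM against 18.3 to 26.8 CPM under salt. Of these markers 3 of 4 passed the test. All 4 had been listed by the study as lower under water deficit on these same libraries, so this is no independent result. The raffinose and trehalose list had 65.4, 66.1 and 3.72 CPM and the LEA list 177, 150 and 18.7 CPM under water deficit, where water deficit 3 stood apart from both other libraries and, for the LEA list, lay below all controls. Without it 539 of 12079 transcripts passed, 202 higher and 337 lower, and 59 of 200 list members, 49 higher and 10 lower, among them 5 of 6 raffinose and trehalose and 9 of 13 LEA transcripts. Without any other single library, 7 to 20 list members passed. Every member of the raffinose, trehalose and LEA lists had been listed by the study as higher under water deficit on these same libraries. Tested members rose from 3 to 6 and from 10 to 13 when water deficit 3 was left out. Their calls follow in large part from this choice and are no independent result.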

How the data were processed

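Leaf RNA was read by the authors as single-end reads of 75 bases. Trimmomatic removed adapters and poor bases, Trinity built 1 transcriptome per species, and CD-HIT merged transcripts sharing 90% identity. After mapping by Bowtie2 2.3.0, reads with a second alignment score were discarded. The counts that the authors deposited are whole numbers that were not normalized, with a column per library. Transcripts with near-identical copies therefore lack shared reads, and strand was not stated in the sources used here. Columns were matched to groups through the sample labels. The 9 columns of the other species were not used.

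Differences were tested with edgeR 4.0.16 under R 4.3.3, using limma 3.58.1 where edgeR needs it: TMM factors, the default filterByExpr, glmQLFit and glmQLFTest in a single fit of 9 libraries with 6 residual degrees of freedom, and Benjamini-Hochberg adjustment over all 9686 transcripts tested. Each standard error was obtained from the log2FC and the F statistic, as the size of the former over the root of the latter. DESeq2 1.42.0 and the exact test of edgeR on 6 libraries were alternatives. Simulated tables with 200 transcripts of known change served to check the code. Pairs of libraries within a group differed by more than sampling noise. A level of 3 counts was taken as the most that a count of 0 allows.

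The 25 lists (208 transcripts, 188 tested) come from descriptions in the supplementary lists of the study, 519 in number, whose own fold changes and p values were not used. Members and lists were chosen with earlier results of these data known. Named transcripts are DEGs, the 10 described ones with the smallest p in each direction, all members of lists of up to 7, the 4 with the largest absolute log2FC of longer lists, and at most 2 without a description in each direction, with exceptions stated. No sequence of the assembly was in hand, so none is shown.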

Additional observations from a re-analysis of the deposited data

How the results depend on the processing

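The number of DEGs under salt was 28 (8 up, 20 down) by the exact test on 6 libraries, 12 (5 up, 7 down) with an absolute log2FC above 2 in addition, 14 (6 up, 8 down) by DESeq2, 9 (5 up, 4 down) with no filter on low counts, and 3 (1 up, 2 down) with an FDR limit of 0.05 or without the plastid and mitochondrial lists. It was 0 by the quasi-likelihood test on 6 libraries (734 with an unadjusted p below 0.05) and by library totals (186). RLE factors, CPM above 1 in 3 libraries and leaving out the 20 most abundant transcripts each gave 1. Leaving out a single library gave 0 to 3 DEGs, 0 to 3 up and 0 to 2 down: 0 without control 2, control 3, salt 1 or salt 3, and 3 without control 1 or water deficit 3. Replicate numbers are shared between groups. The paper reports a randomized complete block design, but not whether these numbers name its blocks. Deviations of same-numbered control and salt libraries had r = 0.25, -0.13 and 0.10 across transcripts, which are not independent. Differently numbered ones ran from -0.25 to 0.20. With 3 libraries in a group, these values cannot tell whether the numbers pair them. With a replicate block there were 0 DEGs, 0 up and 0 down, with 643 transcripts at an unadjusted p below 0.05 and the smallest FDR at 0.0324. The cause of these differences was not tested.

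Of the named transcripts with p below 0.05, a proline transporter 2-like transcript (-0.12) and fumarylacetoacetase (-0.37) changed sign by library totals. Among all 124 named and tested transcripts, 24 changed sign by library totals, 30 without control 1, 11 without salt 3, 8 without control 3 and 0 to 3 under each other alternative. List members that differ between water deficit and salt numbered 7 to 59 over single omissions, an alternative chosen after seeing the data. The median SE was 0.46 for transcripts with an average below 0 log2 CPM, 0.33 from 0 to 2, 0.29 from 2 to 4 and 0.40 above 4.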

Other observations

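Lipid transfer proteins, small secreted proteins that carry lipids to the cell surface, made up a list of 4 transcripts, all tested and with 0 DEGs. Their summed level was 4.90, 4.25 and 18.0 CPM in controls 1 to 3 and 10.2, 16.7 and 13.9 CPM in salt 1 to 3, so that control 3 lay above all salt libraries. The median log2FC was -0.04, with 2 positive and 2 negative, but 1.07 with 4 of 4 positive without control 3, and the ratio of the summed means went from 1.5 to 2.97. Of 8 transcripts described as viral, 4 passed the filter and 0 were DEGs. They summed to 2.00, 10.1 and 0.803 CPM in controls, 25.2, 20.2 and 3.23 CPM under salt and 239, 1.10 and 0.521 CPM under water deficit, so that single libraries differed more than the groups did.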
